A study of Caenorhabditis elegans with 8 samples.

Results

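The 105 genes described here are unnamed *C. elegans* genes, known in the deposited tables only by a sequence name such as W04A4.2, whose values were lower in *nmad-1* germlines than in wild-type (WT) germlines at 25°C but close to WT at 20°C. They were selected on these measured values from 3488 unnamed genes whose mean value reached 50 in both temperatures' tables, out of 20389 unnamed rows among 46739 in all. A member had a ratio of *nmad-1* to WT means, with 1 added to each, of at most 0.5 at 25°C and between 0.8 and 1.25 at 20°C, with both *nmad-1* values below both WT values at 25°C. The values of both genotype contrasts therefore chose the members and are given as a description. Members were 3.01% of the unnamed genes past the level minimum, and 69 of 4678 other rows past the same minimum (1.47%) met the same conditions.

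The groups were *nmad-1*(ok3133) worms at 25°C, WT N2 Bristol worms at 25°C, *nmad-1*(ok3133) worms at 20°C and WT N2 worms at 20°C, with 2 libraries in each group, 8 in all. The ok3133 allele is a deletion in *nmad-1*, which encodes a putative DNA demethylase, and it is the only *nmad-1* allele in these libraries. All samples are labelled as germlines of L4 stage, the last larval stage, and mRNA came from the pooled germlines of 100 worms per group. Each value is an estimated read count divided by a scaling number of its library, the size factor, and is called a normalized value below. Each temperature has its own table, and this scaling did not make the library totals equal. Libraries of 1 group are told apart as A and B, since no column gives a replicate number. In pooled germlines, fewer cells of a type and less RNA per cell cannot be told apart.

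In *C. elegans*, every predicted gene has a sequence name made of the clone it lies on and a number, and it is given a genetic name once its function or homology has been described. The unnamed part of the genome holds conserved housekeeping genes, genes found in few other species, and pseudogenes, which are copies of genes that no longer carry an intact reading frame and that may still be transcribed. The germline contains dividing stem cells, cells in meiosis and, in adults, oocytes. Cultivation at 25°C is near the upper limit at which worms stay fertile.

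Library depth, estimated from the value of 1 read, ran from 18451560 to 33429408 reads, and ribosomal RNA took between 22.2% and 34.8% of a library's values. F09F7.7, which is *nmad-1* itself, on chromosome III, had 170 and 171 in *nmad-1* against 764 and 753 in WT at 25°C, and 114 and 131 in *nmad-1* against 540 and 471 in WT at 20°C. Library A of *nmad-1* at 20°C stood apart. It had the highest ribosomal RNA share and lay below library B for 90 of the 105 members, as for 77.5% of the unnamed genes past the minimum. Among 8 marker lists of 8 genes each, all 8 germ cell and all 8 oocyte markers were lower in *nmad-1* at 25°C, all 16 past limma's adjusted p of 0.05. The summed germ cell markers were 49064 and 48712 in *nmad-1* against 89431 and 91054 in WT at 25°C, and 41491 and 60766 in *nmad-1* against 64432 and 60847 in WT at 20°C. Conversely, 7 intestine, 7 muscle, 6 neuron and 6 sperm markers of 8 each were past that adjusted p and higher in *nmad-1* at 25°C. By direction alone, 0 intestine, 0 muscle, 0 sperm and 1 neuron marker had a ratio below 1. The summed intestine markers were 81157 and 283376 in *nmad-1* against 32693 and 59990 in WT at 25°C. Those of muscle were 18217 and 21976 in *nmad-1* against 7483 and 10155 in WT at 25°C. At 20°C the intestine sums were 74554 (A) and 238979 (B) in *nmad-1* against 141705 and 160956 in WT. The muscle sums were 81216 (A) and 29908 (B) against 33913 and 45588 in WT at 20°C. The sperm sums there were 876 (A) and 314 (B) against 172 and 103 in WT. Those of sheath and spermatheca were closer, 18568 (A) and 20062 (B) against 21767 and 21886 in WT. Of the cuticle and epidermis list at 25°C, 1 gene was called lower and 2 higher past that adjusted p, with 4 of 8 ratios below 1. Of the gonadal sheath and spermatheca list 2 were called lower and 3 higher, with 2 of 8 ratios below 1. No marker was at 0 in all libraries. The part of cell composition in the values of the members was not tested.

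The ratio of *nmad-1* to WT at 25°C ranged from 0.227 to 0.4998 over the 105 members, with a median of 0.457. Against this, the median over all 3488 unnamed genes past the minimum was 0.779. On the log2 scale the medians were -1.13 for the members, -0.36 for those unnamed genes and -0.09 for the 11955 genes tested. Most members lay near the limit, with 59 above 0.45 and 12 at or below 0.35. At 20°C the members' ratio had a median of 0.881 and ran from 0.804 to 1.24. There too most values lay toward the lower limit, with 61 members under 0.9, 38 between 0.9 and 1.1, and 6 above 1.1.

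**Figure D1:**
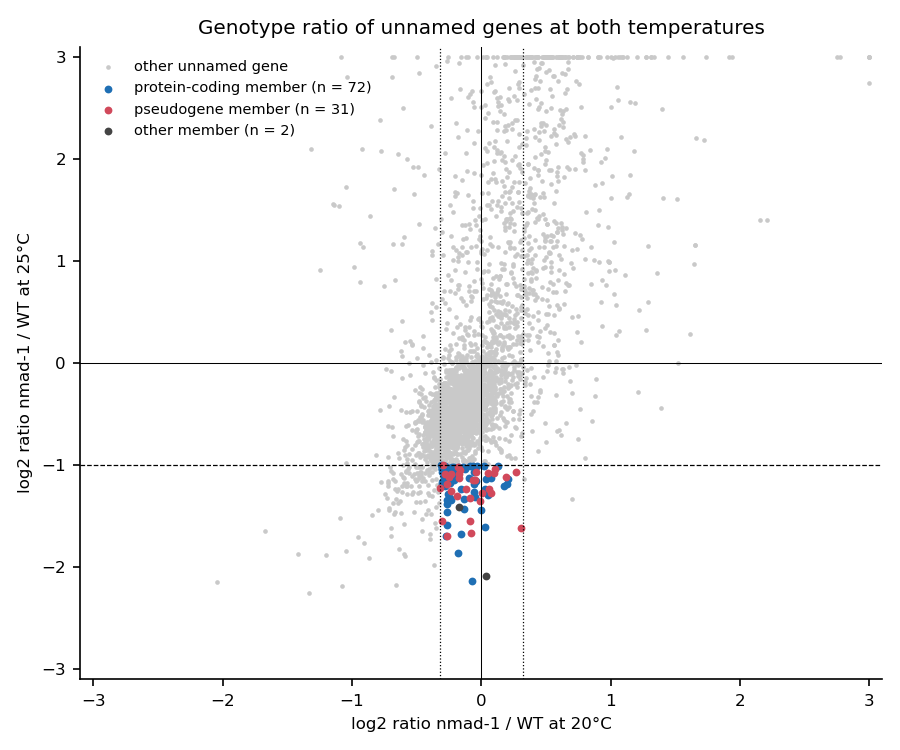
Log2 ratio of *nmad-1* to WT means (1 added) at 20°C (x axis) and at 25°C (y axis) for the 3488 unnamed genes past the level minimum, with protein-coding members in blue, pseudogene members in red, other members in black and all other genes in grey. The dashed line marks the ratio of 0.5 and the dotted lines the ratios of 0.8 and 1.25; the 105 members fill the box these lines enclose, denser at its left and upper edges, and 122 genes with a log2 ratio beyond 3 at either temperature are drawn at the edge.

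The members with the lowest ratios at 25°C ranged widely in level. W04A4.2 (WBGene00012231, chromosome I), the member with the lowest ratio, had 57.2 and 52.7 in *nmad-1* against 256 and 236 in WT at 25°C, and 208 and 293 in *nmad-1* against 281 and 247 in WT at 20°C. The *nmad-1* libraries of 25°C were thus 4.41-fold lower than WT of the same temperature, while those of 20°C straddled the WT values. C25A11.1, which has no entry in the annotation used, had 34.3 and 29.5 in *nmad-1* against 157 and 120 in WT at 25°C. At 20°C it had 126 and 164 in *nmad-1* against 149 and 134 in WT, again with overlap. C46E10.8 on chromosome II had 29.7 and 14.7 in *nmad-1* against 85.2 and 82.3 in WT at 25°C. Its *nmad-1* libraries differed by more than those of most members. It overlaps C46E10.9 on the same strand, which had a higher mean value and a ratio of 0.562 at 25°C.

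Y46H3C.5 on chromosome V overlaps Y46H3C.7 on the same strand, so their reads may not be separable. Y46H3C.7 had a higher mean value, with ratios of 0.363 at 25°C and 0.699 at 20°C. Y46H3C.5 itself had 149 and 130 in *nmad-1* against 459 and 452 in WT at 25°C. At 20°C it had 262 and 258 in *nmad-1* against 324 and 304 in WT, so the groups did not overlap there either and the ratio was 0.827. Y24F12A.3, a pseudogene on chromosome IV, followed the same course with 141 and 129 in *nmad-1* against 414 and 469 in WT at 25°C, and a ratio of 0.834 at 20°C. K09E3.7 on chromosome X had 193 and 207 in *nmad-1* against 602 and 682 in WT at 25°C. Its values at 20°C, 454 and 650 in *nmad-1* against 629 and 604 in WT, enclosed those of WT.

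Of the other members among the 10 lowest, 3 more lie on chromosome X. T08A9.6, a pseudogene, had 65.2 and 38.0 in *nmad-1* against 161 and 170.0 in WT at 25°C. F46C3.4, also a pseudogene, had 51.5 and 25.6 in *nmad-1* against 123 and 118 in WT at 25°C, and it had the highest ratio of all members at 20°C, 1.24, with 75.4 and 129 in *nmad-1* against 72.1 and 92.3 in WT. K08H2.3 had 132 and 94.6 in *nmad-1* against 332 and 360 in WT at 25°C, and a ratio of 1.02 at 20°C. T16G12.3 on chromosome III was the most abundant of the 10, with 836 and 857 in *nmad-1* against 2609 and 2479 in WT at 25°C, and 788 and 1228 in *nmad-1* against 1227 and 1199 in WT at 20°C. For each of these 10 genes the gap between the genotypes at 25°C was wider than the gap between the libraries of either genotype. The rule required no overlap at 25°C and these are its lowest ratios, so nothing is read from that.

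**Figure D2:**
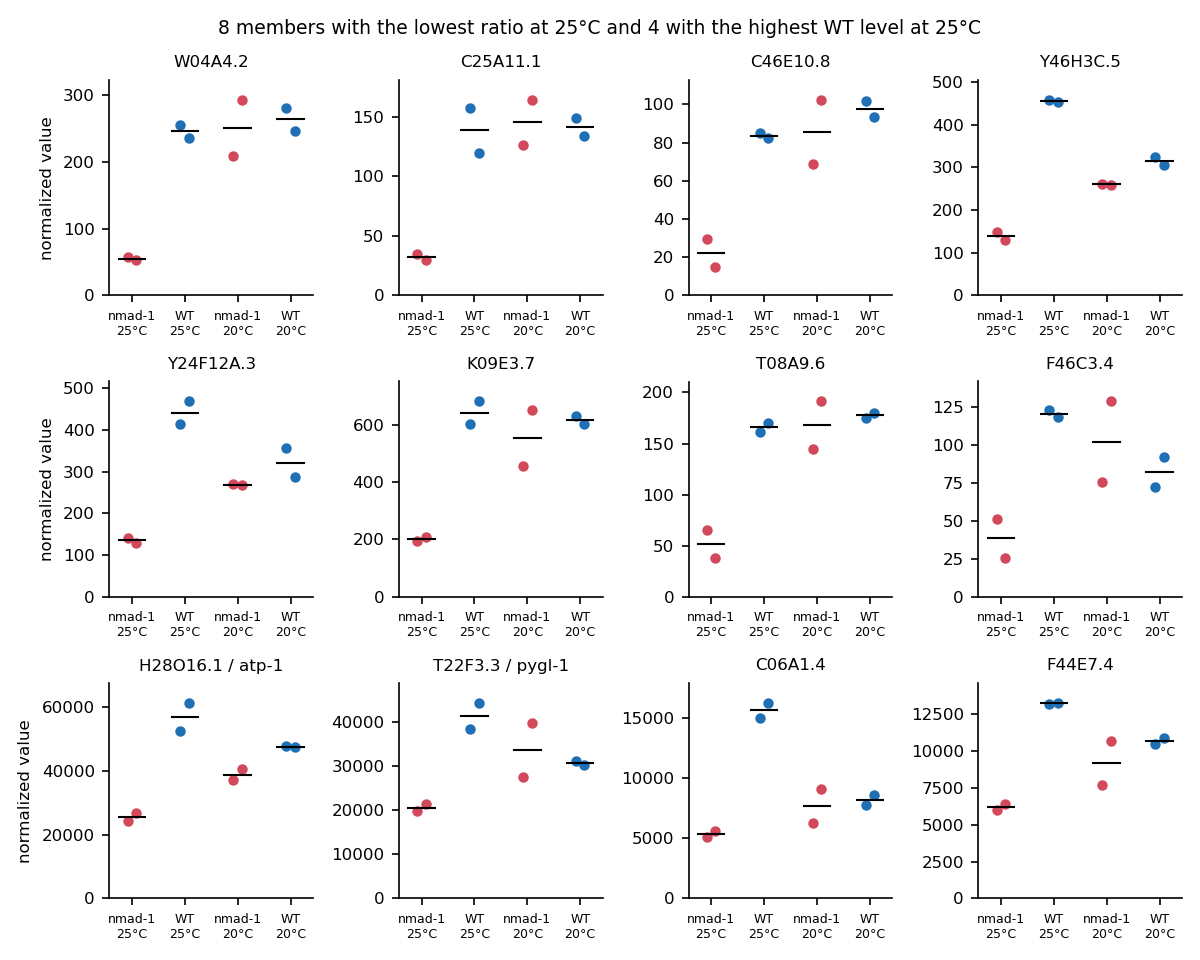
Normalized value per library (linear axis from 0) in the 4 groups for the 8 members with the lowest ratio at 25°C and the 4 with the highest WT level at 25°C; points are libraries A and B, in red for *nmad-1* and blue for WT, and bars are means. At 25°C both *nmad-1* points lie below both WT points in every panel, while at 20°C the groups overlap or lie close, as for W04A4.2 with 208 and 293 in *nmad-1* against 281 and 247 in WT.

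Genetic names have since been given to 14 of the 105 members, and these can be described by role. The share of such roles among all unnamed genes was not counted, so none is read as particular to the members. Several of the 14 encode parts of the mitochondrial machinery that makes ATP. H28O16.1, now *atp-1*, the alpha subunit of ATP synthase, was the most abundant member, with 24250 and 26925 in *nmad-1* against 52617 and 61465 in WT at 25°C, and 37058 and 40501 in *nmad-1* against 47877 and 47371 in WT at 20°C. Its groups did not overlap at either temperature, with ratios of 0.449 at 25°C and 0.814 at 20°C. F29C4.2, now *cox-6C*, a subunit of cytochrome c oxidase, had 978 and 1040 in *nmad-1* against 1692 and 2369 in WT at 25°C. Its WT libraries differed from each other by more than its *nmad-1* libraries did.

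For complex I, the NADH dehydrogenase that feeds electrons into the respiratory chain, 2 subunits were members. Y69A2AR.3, now *nduv-3*, had 173 and 161 in *nmad-1* against 330 and 429 in WT at 25°C. Y63D3A.7, now *ndua-2*, had 286 and 253 in *nmad-1* against 495 and 619 in WT at 25°C. B0334.5, now *nuaf-6*, an assembly factor of complex I, had 1315 and 1157 in *nmad-1* against 2551 and 2500 in WT at 25°C, and 1361 and 1809 in *nmad-1* against 1792 and 1810 in WT at 20°C. In the annotation it overlaps another gene, *emc-5*, on the same strand, whose ratio at 25°C was 0.509. T22F3.3, now *pygl-1*, glycogen phosphorylase, which releases glucose units from glycogen, had 19830 and 21376 in *nmad-1* against 38523 and 44503 in WT at 25°C. At 20°C the *nmad-1* libraries lay on either side of WT, with 27572 and 39963 in *nmad-1* against 31186 and 30406 in WT.

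Small RNA pathways of the germline include *simr-1* and *erh-2*. C06A5.6, now *simr-1*, a Tudor domain protein that acts between piRNAs and the amplification of small interfering RNAs, had 2018 and 1929 in *nmad-1* against 5059 and 4941 in WT at 25°C. At 20°C it had 2960 and 4132 in *nmad-1* against 4181 and 4328 in WT, with library A well below the other 3. F35G12.11, now *erh-2*, a subunit of the PETISCO complex that processes piRNA precursors, had 561 and 456 in *nmad-1* against 1034 and 1110 in WT at 25°C. F49E8.2, now *oef-1*, a nuclear factor of germ cells that is absent from oocytes, had 1483 and 1222 in *nmad-1* against 2829 and 2745 in WT at 25°C. It overlaps *pam-1* on the opposite strand, which had a ratio of 0.462 at 25°C and a higher mean value, and the sources used here do not state that reads were counted by strand.

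Further members act in transcription, translation and protein modification. C17G10.9, now *eif-3.L*, a subunit of the translation initiation factor eIF3, had 2252 and 2492 in *nmad-1* against 4970 and 4799 in WT at 25°C. R74.6, now *pelo-1*, which rescues stalled ribosomes, had 367 and 333 in *nmad-1* against 706 and 746 in WT at 25°C. It overlaps *asd-1* on the opposite strand, which had a higher mean value and a ratio of 0.897 at 25°C. Y51A2D.7, now *ints-5*, a subunit of the Integrator complex that cleaves nascent RNAs such as those of small nuclear RNA genes, had 740 and 785 in *nmad-1* against 1608 and 1489 in WT at 25°C. Y97E10AL.3, now *natb-1*, a subunit of an amino-terminal acetyltransferase, had 495 and 414 in *nmad-1* against 1118 and 1175 in WT at 25°C and straddled WT at 20°C. Last, T24C2.2, now *enri-2*, whose role is not described here, was the least abundant of the 14, with 48.0 and 59.7 in *nmad-1* against 89.1 and 129 in WT at 25°C. The ratios of these 14 genes at 25°C ran from 0.395 for *simr-1* to 0.498 for *enri-2*.

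Gene class, which the rule did not use, was distributed differently in the members than in the other unnamed genes, although most members were protein-coding. The annotation lists 31 of the 105 members as pseudogenes, or 29.5%, and 72 as protein-coding. Another, Y9D1A.1, is a long intergenic noncoding RNA. The 95% Wilson interval of the pseudogene share, 21.6% to 38.8%, covers counting error only. It treats the genes as independent draws, which members chosen on the same libraries are not. When the rule was applied without *nmad-1* library A at 20°C, pseudogenes were 23.8% of 130 members, and without library B 38.9% of 54. With all libraries scaled to the same total they were 18.2% of 11. Among all 3488 unnamed genes past the minimum only 122, or 3.50%, are pseudogenes and 3315 are protein-coding. Put the other way, 25.4% of those pseudogenes were members, against 2.17% of the coding genes. The same direction was seen outside the unnamed genes, where 6 of 34 pseudogenes (17.6%) and 63 of 4631 coding genes (1.36%) with other names met the conditions.

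Both conditions of the rule entered this share: pseudogenes were 49 of the 231 unnamed genes with a ratio of at most 0.5 at 25°C, and 31 of the 105 left by the band at 20°C. The values behind it are those the rule used and are given as a description. The median log2 ratio at 25°C was -0.90 over the 122 pseudogenes, against -0.35 over the 3315 coding genes, and 40.2% of the pseudogenes had a ratio of at most 0.5 against 5.34% of the coding genes. At 20°C the medians were -0.07 over the pseudogenes and -0.11 over the coding genes. Pseudogenes were less abundant, with a median mean value of 168 against 686 for coding genes, so the classes were also set side by side within 3 bins of equal size by the level at 20°C. In the lowest bin, under 303, 22 of 88 pseudogenes (25.0%) and 32 of 1048 coding genes (3.05%) were members, and the median log2 ratio at 25°C was -0.79 for pseudogenes and 0.57 for coding genes. In the middle bin 6 of 26 pseudogenes (23.1%) and 29 of 1129 coding genes (2.57%) were members. In the highest bin, at 1157 and above, 3 of 8 pseudogenes and 11 of 1138 coding genes (0.967%) were.

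**Figure D3:**
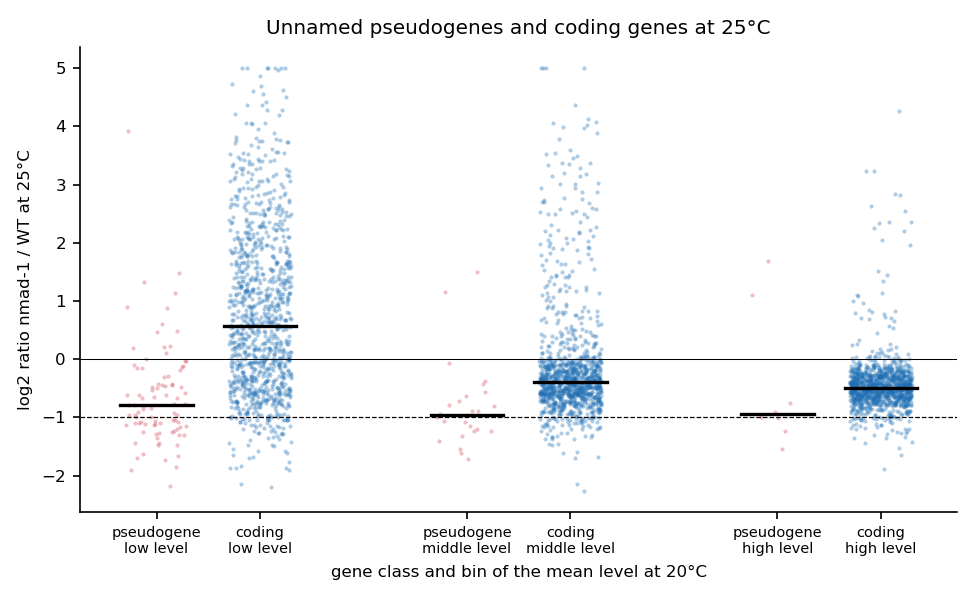
Log2 ratio of *nmad-1* to WT at 25°C (y axis) for the unnamed pseudogenes (red) and protein-coding genes (blue) past the level minimum, in 3 bins of the mean level at 20°C (x axis); points are genes, bars are medians, the dashed line is a ratio of 0.5, and 11 genes above 5 are drawn at 5. The pseudogene bar lies below the coding bar in each bin, most widely in the lowest one (-0.79 against 0.57).

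The reads of a pseudogene can be shared with an intact gene of nearly the same sequence, in which case the estimated counts split them and the value of each is uncertain. At least 1 library with a value that was not a whole number of reads, to within 0.01 read, was seen for 21 of the 31 pseudogene members and 20 of the 72 coding members, against 63.1% of the unnamed pseudogenes and 10.8% of the unnamed coding genes past the minimum. Among the genes with whole reads in all 8 libraries, 10 of 45 pseudogenes (22.2%) and 52 of 2958 coding genes (1.76%) were members. The median log2 ratios at 25°C in these genes were -0.78 for pseudogenes and -0.35 for coding genes.

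The pseudogene members included genes of high level. C06A1.4 (WBGene00014667, chromosome II) had 5089 and 5599 in *nmad-1* against 15014 and 16300 in WT at 25°C, and 6297 and 9107 in *nmad-1* against 7806 and 8583 in WT at 20°C. It was 2.93-fold lower in *nmad-1* at 25°C, and its groups overlapped at 20°C. C14B1.7 on chromosome III, whose values were whole reads in all libraries, had 2787 and 2860 in *nmad-1* against 6776 and 6458 in WT at 25°C. At 20°C it was the member closest to the lower limit, with a ratio of 0.804 and 2287 and 3237 in *nmad-1* against 3419 and 3456 in WT. C18H2.2, also on chromosome III, had 1390 and 1301 in *nmad-1* against 2795 and 2651 in WT at 25°C. F44E7.4, a protein-coding gene on chromosome V, had a level in this range, with 5972 and 6403 in *nmad-1* against 13229 and 13296 in WT at 25°C.

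The members were spread over all 6 chromosomes, but unevenly against the other unnamed genes. Chromosome II held 28 members, or 26.7% of them against 18.1% of the unnamed genes past the minimum, and 21 of these 28 were coding. Chromosome I held 8 members, 7.62% against 18.7%. On X there were 17, 16.2% against 12.01%, although the median log2 ratio at 25°C of all unnamed genes past the minimum on X was 0.24 and that on chromosome II was -0.41. Chromosomes III, IV and V held 17 members each.

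**Figure D4:**
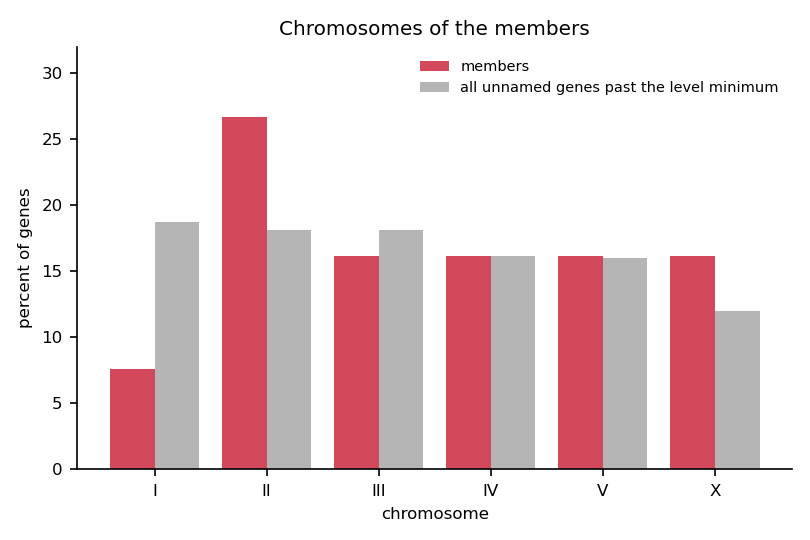
Percent of the 105 members (red) and of the 3488 unnamed genes past the level minimum (grey) on each chromosome (x axis). Chromosome II has the tallest red bar, 26.7% against 18.1%, and chromosome I the shortest, 7.62% against 18.7%.

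Only members that directly follow each other in the annotation were counted as neighbours, with no count over other genes beside them. Other members share a clone name without being consecutive, such as F19B10.2 and F19B10.5. C25A11.1, which shares a clone name with the member C25A11.10, has no entry in the annotation and could not be placed. Only D2096.10, D2096.11 and D2096.16 on chromosome IV lay next to each other among coding genes, pseudogenes and long intergenic RNAs, and their annotated spans overlap on the same strand, so their reads may not be separable. D2096.11 had 348 and 311 in *nmad-1* against 1010 and 814 in WT at 25°C. D2096.10 had 117 and 89.9 in *nmad-1* against 258 and 207 in WT. D2096.16, a pseudogene, had 41.2 and 29.5 in *nmad-1* against 90.1 and 83.4 in WT. The middle gene, D2096.11, was the most abundant of these and had the lowest ratio, 0.362.

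Overlap with another expressed gene of a mean value of at least 10 was annotated for 24 members (22.9%), close to the 24.3% of the unnamed genes past the minimum. Of the 24 overlapping genes that are not members, 5 had a ratio of at most 0.5 at 25°C and their median was 0.647. For the other 81 members no overlap with a gene of that level was annotated. They include C25A11.1, which has no entry in the annotation and could not be assessed. Coding members had a median of 4.5 exons and spanned a median of 1966 bases, against 6 exons and 2420 bases for all unnamed coding genes past the minimum, and pseudogene members had 6 exons and 1962 bases, against 5 exons and 1851 bases for all unnamed pseudogenes past it.

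At 20°C the place of the members relative to WT depended on the scaling. As deposited, the ratio was below 1 for 84 of 105 members (80.0%), against 66.3% of the unnamed genes past the minimum. It was below 1 for 61 under upper quartile scaling, 79 under the same total and 49 under the same total outside ribosomal RNA. As deposited, both *nmad-1* values lay below both WT values for 37 members. Over the 12260 genes tested at 20°C that was so for 19.1%. Relative to the total outside ribosomal RNA, it was so for 5 members (4.76%), against 13.5% of the unnamed genes past the minimum. These backgrounds are different sets of genes, and the share of the unnamed genes as deposited was not counted. The band at 20°C also divided a larger set: of 231 unnamed genes with a ratio of at most 0.5 at 25°C, all without overlap, 105 were inside the band, 124 were below 0.8 and 2 were above 1.25. Just outside the band, F25B4.4 had a ratio of 0.799 at 20°C, with 266 and 386 in *nmad-1* against 413 and 404 in WT, beside 0.804 for C14B1.7 just inside it. T26G10.7 and F59E12.6 followed outside at 0.798 and 0.796, and K02F3.12 and F19B10.5 inside at 0.808 and 0.809.

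Membership at 20°C depended on which *nmad-1* library was used. With library B left out and A kept, the median ratio of the members at 20°C was 0.798 and 53 of the 105 fell below 0.8, while with A left out it was 0.986 and 7 fell below 0.8. The median ratio of the higher to the lower library of a pair over the members was 1.304 for *nmad-1* at 20°C, against 1.097 for WT at 20°C, 1.13 for *nmad-1* at 25°C and 1.13 for WT at 25°C.

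The limit at 25°C likewise ran through a dense region. Just inside it were ZK1225.7, a pseudogene, at 0.4998, K02F3.12 at 0.499 and F47G3.3 at 0.498. ZK1225.7 had 139 and 85.8 in *nmad-1* against 249 and 204 in WT, F47G3.3 had 199 and 187 in *nmad-1* against 378 and 398 in WT, and K02F3.12 had 1008 and 1014 in *nmad-1* against 2132 and 1922 in WT. Just outside were Y37B11A.3 at 0.5007, F27D4.3 at 0.501 and ZK637.6 at 0.501. F27D4.3 had 234 and 208 in *nmad-1* against 455 and 430 in WT at 25°C, a ratio of 0.501 beside 0.498 for F47G3.3 inside the limit.

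Libraries of a group were furthest apart in F46F2.3 on chromosome X, with 54.9 and 14.7 in *nmad-1* against 73.3 and 100.9 in WT at 25°C. At 20°C it had 811 and 285 in *nmad-1* against 536 and 523 in WT, so its level differed far more between the temperatures than between the genotypes. C46E10.8 and F46C3.4, both described above, followed, each through its *nmad-1* libraries at 25°C.

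To set the temperatures side by side, values were expressed per 1000000 of the library's values outside ribosomal RNA, since each table had been normalized on its own. On this scale the members together took 0.544% and 0.550% of *nmad-1* libraries and 0.816% and 0.822% of WT libraries at 25°C. At 20°C they took 0.752% and 0.778% of *nmad-1* libraries and 0.726% and 0.742% of WT libraries. By these shares the *nmad-1* libraries at 25°C were the lowest of the 4 groups and the WT libraries at 25°C the highest. The rule chose the members on these values, so this order follows from the choice at least in part.

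Per gene, the ratio of 25°C to 20°C had a median of 0.710 in *nmad-1* and 1.11 in WT over the members, beside 1.11 in *nmad-1* and 1.02 in WT over all unnamed genes past the minimum. In *nmad-1*, 92 members were lower at 25°C than at 20°C, and for 75 (71.4%) both libraries of 25°C lay below both of 20°C, against 18.8% of the unnamed genes past the minimum. In WT, 63 members were higher at 25°C, 51 (48.6%) without overlap, and 26 (24.8%) were lower without overlap, against 36.2% and 35.8% of the unnamed genes past the minimum. These levels are the ones that chose the members. Both were seen for 23 members, lower at 25°C in *nmad-1* and higher at 25°C in WT with no overlap in either. The share of all unnamed genes that did both was not counted, so nothing is read from that number.

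The members took different courses between the temperatures. T20F7.1, which was chosen after its values were seen as the member with the highest ratio between temperatures in WT, had 50.9 in *nmad-1* and 82.3 in WT per 1000000 at 25°C, and 44.0 in *nmad-1* and 39.4 in WT at 20°C. D2096.10 averaged 6.25 in *nmad-1* and 9.53 in WT per 1000000 at 25°C, against 4.53 in *nmad-1* and 4.79 in WT at 20°C, so both genotypes were higher at 25°C and WT more so. C06A1.4 had 323 in *nmad-1* and 637 in WT per 1000000 at 25°C, beside 423 in *nmad-1* and 393 in WT at 20°C. For *simr-1* the WT levels of the temperatures were alike, 204 per 1000000 at 25°C and 204 at 20°C, while *nmad-1* had 119.3 at 25°C and 195 at 20°C. W04A4.2 was lower at 25°C in both genotypes, with 3.32 in *nmad-1* and 10.03 in WT per 1000000 at 25°C against 13.8 in *nmad-1* and 12.7 in WT at 20°C.

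**Figure D5:**
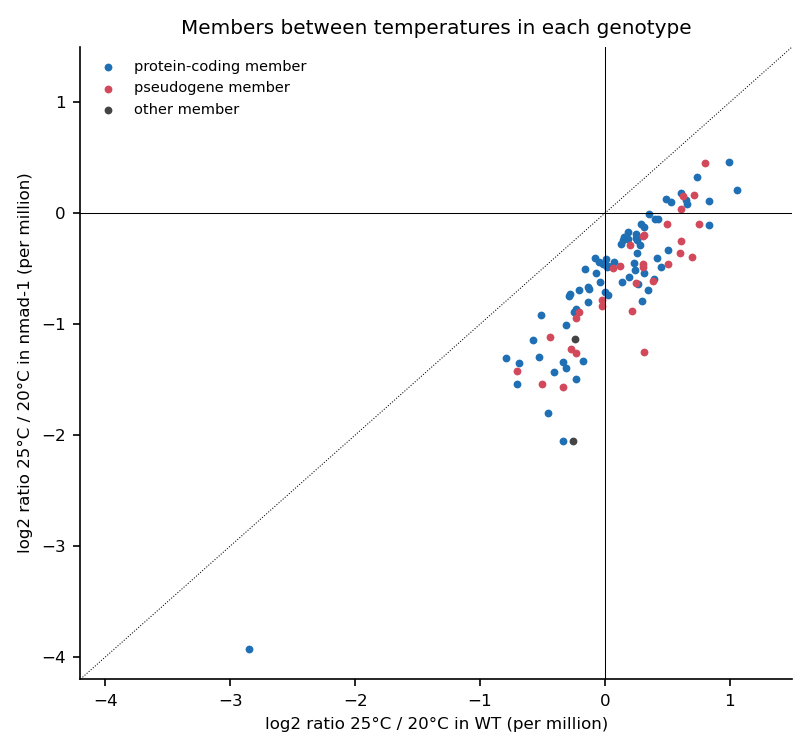
Log2 ratio of 25°C to 20°C, from values per 1000000 outside ribosomal RNA, in WT (x axis) and in *nmad-1* (y axis) for the 105 members; the dotted line marks equal ratios. All points lie below the line, a consequence of the rule; 63 members are right of 0 in WT and 13 above 0 in *nmad-1*, and the point at the lower left is F46F2.3.

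In limma fits over all genes, all 105 members were past an adjusted p of 0.05 and lower in *nmad-1* at 25°C, where 38.0% of 11955 genes tested were called lower, and 0 of 105 were past it at 20°C, where 0.481% of 12260 genes were called in either direction. At 20°C no member had an unadjusted limma p under 0.05 either, beside 844 of the 12260 genes tested. In the interaction of genotype and temperature over all 8 libraries, 34 of 105 were past an adjusted p of 0.05 with the lower ratio at 25°C, beside 1.25% of 11265 genes tested. The rule used these contrasts, so nothing is read from these counts. For fits with a library left out, the share over all genes was not counted, so their calls are not set beside these. The members' median log2 ratio at 20°C, -0.18 as deposited, was -0.33 without *nmad-1* library B there and -0.02 without library A. The values deposited in *nmad-1* at 25°C summed to 22505140 and 21937580, against 33108053 and 32929742 in WT, and scaling the libraries to equal totals raised the members' median log2 ratio at 25°C to -0.56 with all 105 still below 0, and 10 still at or below a ratio of 0.5. The median of all genes tested moved with it to 0.48.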

How the data were processed

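Germline mRNA of 8 samples was sequenced. The authors trimmed reads to 50 bp, aligned them to WS220 (ce10) with Bowtie2 2.2.9 and quantified them with RSEM 1.3.0. The deposited signal per gene and library was read from the values as RSEM's expected count divided by EBSeq's size factor, each temperature in its own table. Tables of the authors' own comparisons (posterior probabilities and fold changes) were not used. No column names its group. Each column's group was inferred from the comparison that the labels name for its table, read as *nmad-1* first and WT second. That is the order in which the paper's supplement names the same comparisons.

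The members and lists were chosen with earlier results of these data known. Between 90.9% and 92.0% of values came out as whole reads to within 0.01 read, too few for a count test, so limma 3.58.1 (R 4.3.3) was run on log2(value + 1) with a variance trend, for genes with a mean of at least 10, with Benjamini-Hochberg adjustment at 0.05. The fold change of low genes is understated on that scale. The code was tested on simulated data. Libraries of a group differed by more than sampling noise, with a chi-square per degree of freedom between 21.7 and 113, and were described as biological replicates by the study.

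The genes named were the 10 members with the lowest ratio at 25°C, the 10 with the highest WT mean at 25°C, those with a current symbol, 3 on each side of the limit at 25°C, the 3 with the widest gap within a group, adjacent members and *nmad-1*; genes beside the limit at 20°C, Y9D1A.1, T20F7.1 and overlapping genes were added after values were seen. Symbols, gene classes and neighbours came from WBcel235, another build than that of the files, so no coordinates are given; 104 of 105 members matched. The alternatives were other scalings, pseudocounts, filters, limits and each library left out.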

Additional observations from a re-analysis of the deposited data

Results flagged for a closer look

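In the interaction term of genotype and temperature, 34 of the 105 members were past limma's adjusted p of 0.05 with the lower ratio at 25°C, beside 1.25% of the 11265 genes tested (Benjamini-Hochberg). The adjusted p of the members ran from 0.00872 to 0.292 and 90 had an unadjusted p under 0.05. The share of all genes with such an unadjusted p was not counted, nor the share called under other settings. The members were chosen on both contrasts, so the count of 34 follows from the choice at least in part and shows no difference of its own. It was 0 without the variance trend and ranged between 2 and 82 when a library was left out, with 82 without *nmad-1* library A at 20°C and 2 without WT library B at 20°C.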

How the results depend on the processing

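No paired analysis was possible because no column gives a replicate number, so a replicate block could not be fitted. The number of members, 105 as deposited, was 25 under upper quartile scaling (14 of them among the 105), 11 under the same total (8) and 14 under the same total outside ribosomal RNA (8). It was 22 and 324 with limits of 0.4 and 0.6 at 25°C, 38 with a band of 0.9 to its inverse at 20°C and 231 with no band. With 1 library left out it ranged from 54 to 134, the lowest without *nmad-1* library B at 20°C. The median log2 ratio at 25°C was -0.74, -0.56 and -0.57 under these 3 scalings, and from -1.21 to -1.06 with a library left out. At 20°C the median of -0.18 turned to 0.027 under the same total outside ribosomal RNA, and was -0.33 to -0.02 with a library left out. Members called lower at 25°C numbered 69 under the same total and 66 under that outside ribosomal RNA, and 92 to 102 with a library left out. At 20°C, 0 were called as deposited and 0 to 25 with a library left out, 25 without *nmad-1* library B and 1 without library A. Interaction calls were 10 and 18 under these totals, 4 with no filter and 0 without the variance trend, and 2 to 82 with a library left out (82 without *nmad-1* library A at 20°C, 5 without its library B, 30 without *nmad-1* library A at 25°C, 10 without its library B, 10 without either WT library at 25°C, 11 without WT library A at 20°C and 2 without its library B). Where a library was left out, the lone sample was assumed to vary like the other groups. The share of all genes called was counted only as deposited, so nothing is read from the changes in member calls. Pseudogenes were 29.5% of the members, and, in settings chosen after seeing the data, 18.2% of the 11 under the same total, 21.4% of the 14 under that outside ribosomal RNA, 15.9% of the 63 members with whole reads, and 23.8% to 38.9% with a library left out. The causes were not tested. With 2 libraries a group the spread of a single gene is poorly known, and low counts limit members such as C46E10.8, with a mean of 22.2 in *nmad-1* at 25°C.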
